A study of Mus musculus with 6 samples.

Results

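Calcium channels, calcium release channels and calcium pumps set how much calcium enters the cytosol of a cell and how fast it leaves again. Of the 17607 genes in the deposited table, 38 carried a symbol of a voltage-gated calcium channel subunit, a ryanodine receptor, an IP3 receptor, a SERCA pump or a PMCA pump, and the 34 with a mean of at least 10 normalised read counts over the 6 libraries were taken. Gene expression was measured by RNA sequencing of auditory nerves microdissected from the cochleas of CBA/CaJ mice, an inbred strain that keeps good hearing well into adult life. The young group held 3 mice at an age of 2 months and the old group 3 mice at 2.5 years, with no other treatment named in the labels. The young columns of the deposited table are headed CTRL. They were matched to the young samples because its comparison is old against young. Both cochleas of a mouse were pooled into 1 library, so the replicates are separate animals. Reads recovered from the normalised counts numbered 34587979 to 40841478 per library.

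The voltage-gated channels open on depolarisation and are built from a pore-forming alpha1 subunit with accessory beta and alpha2delta subunits. In neurons the Cav2 pores drive transmitter release, the Cav1 pores couple activity to transcription and carry release from hair cells, and the low-threshold Cav3 pores shape excitability. Ryanodine and IP3 receptors release calcium from the endoplasmic reticulum, SERCA pumps refill that store, and PMCA pumps expel calcium across the plasma membrane. The auditory nerve holds spiral ganglion neurons, Schwann cells and satellite glia, along with vessels and traces of the surrounding cochlea.

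Most of these genes were lower in old nerves. Of the 34, all of which were tested, 19 were lower and 3 higher at an adjusted p under 0.05 (limma, Benjamini-Hochberg over 15882 genes), where 18.7% of all tested genes were lower and 15.9% higher, 34.6% in all. The median log2 fold change, old minus young on the log2(normalised count + 1) scale, was -0.74 over the 34 genes and 0.00 (-0.000797) over all tested genes. In 8 genes the fall passed that threshold and was also at least 2-fold, as it did in 2.34% of tested genes. These were Cacna1a, Cacna1b, Cacna1e, Cacna1h, Cacng2, Cacng5, Cacng7 and Atp2b3. Without both young 1 and old 2, 9 of the 34 were lower and 2 higher, where 5.97% and 5.25% of the genes tested in that fit were. The falls of Cacna1c, Cacna2d3, Cacnb3, Cacng4, Cacng7, Ryr2, Ryr3, Atp2a2, Atp2b2, Atp2b3 and Atp2b4 did not pass in it. Nor did the rise of Itpr2, whereas Cacna1i was called lower there though not with all libraries. In 19 genes all 3 old libraries lay below all 3 young ones, and in 3 they lay above, against 26.3% and 25.5% of tested genes. Exact permutation of 3 against 3 libraries has 0.1 as its smallest p. Each adjusted p below therefore comes from limma's model over all genes, unless DESeq2 or the authors' FDR is named.

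These transcripts are long, and long transcripts tended to be lower in old nerves across the table. The median length of the longest coding transcript was 7283 nt for the 34 genes and 3166 nt for tested genes, and the 1165 tested genes at least as long as the median of the 34 had a median log2 fold change of -0.30. Across 14896 tested genes, which are not independent replicates, the Spearman correlation of length with log2 fold change was -0.38. With smooth trends in length and GC content removed from each library, 14 of the 34 were lower and 4 higher, where 13.3% of genes with a known length were lower and 11.7% higher, and their median was -0.42. All 14 of those falls and 3 of the 4 rises were also past the threshold without that step. The other 5 falls, of Cacna1c, Ryr2, Ryr3, Itpr3 and Atp2b4, were not, and their values are given with each gene below.

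**Figure D1:**
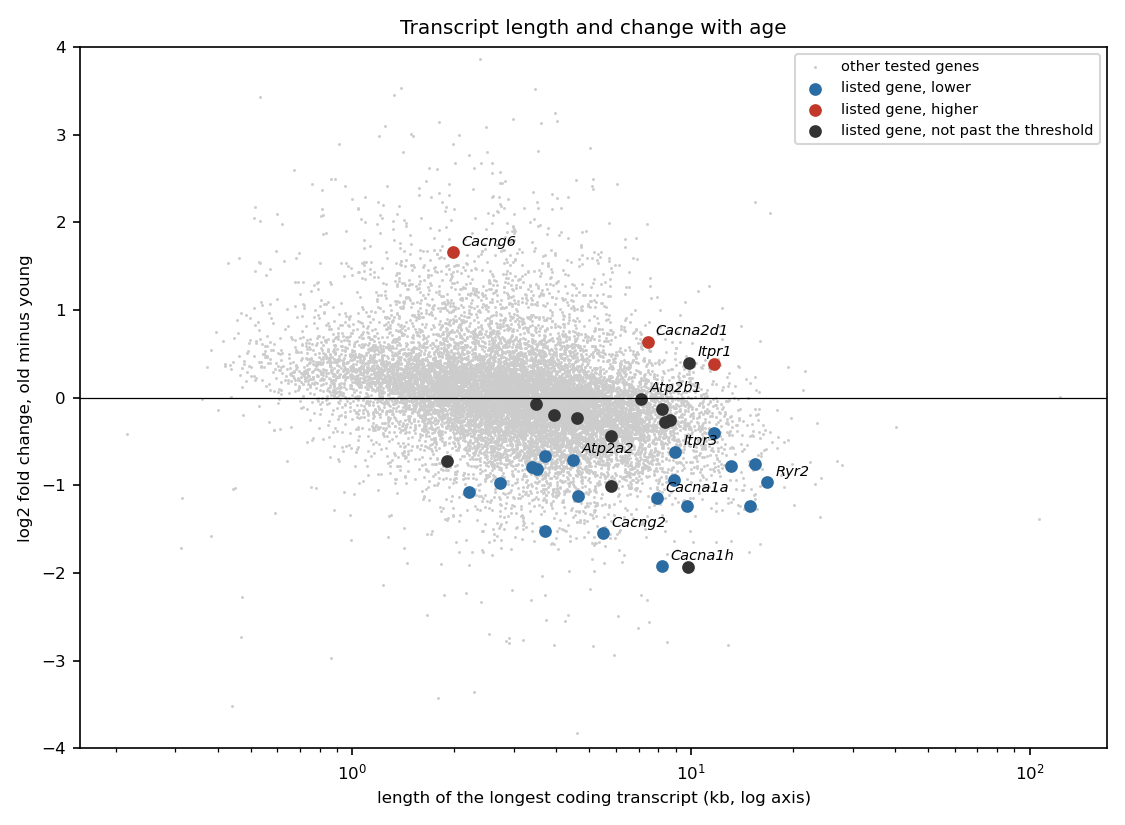
Length of the longest coding transcript (kb, log axis) against the log2 fold change, old minus young, for tested genes (grey) and for the 34 calcium channel, release channel and pump genes (coloured by call). Most of the 34 lie to the right, where the grey cloud itself lies below 0, and 10 tested genes fall outside the drawn range.

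General neuron markers were lower in part as well. Summed over 14 general neuron markers, the normalised counts ranged from 419191 to 451100.0 in young and 252116 to 374362 in old nerves, and 5 of the 14 (Rbfox3, Elavl3, Nefl, Nefm and Syp) fell. None was higher in limma, edgeR or DESeq2, and 0 were higher at an unadjusted p under 0.05. The sum was 252116 in old 1, 310908 in old 2 and 374362 in old 3. In the same way old 1 held the lowest of the 3 old values in 15 of the 19 calcium genes that fell and old 3 the highest in 13, as they did in 66.6% and 73.6% of all genes that fell. The 11 Schwann cell myelin markers summed to 431232 to 501945 in young and 433036 to 482528 in old nerves, and the 11 macrophage markers to 5106 to 6914 in young and 11129.8 to 16689 in old nerves. In bulk tissue fewer cells of a type and less RNA per cell cannot be told apart, and the part of these shifts in the results below was not tested.

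**Figure D2:**
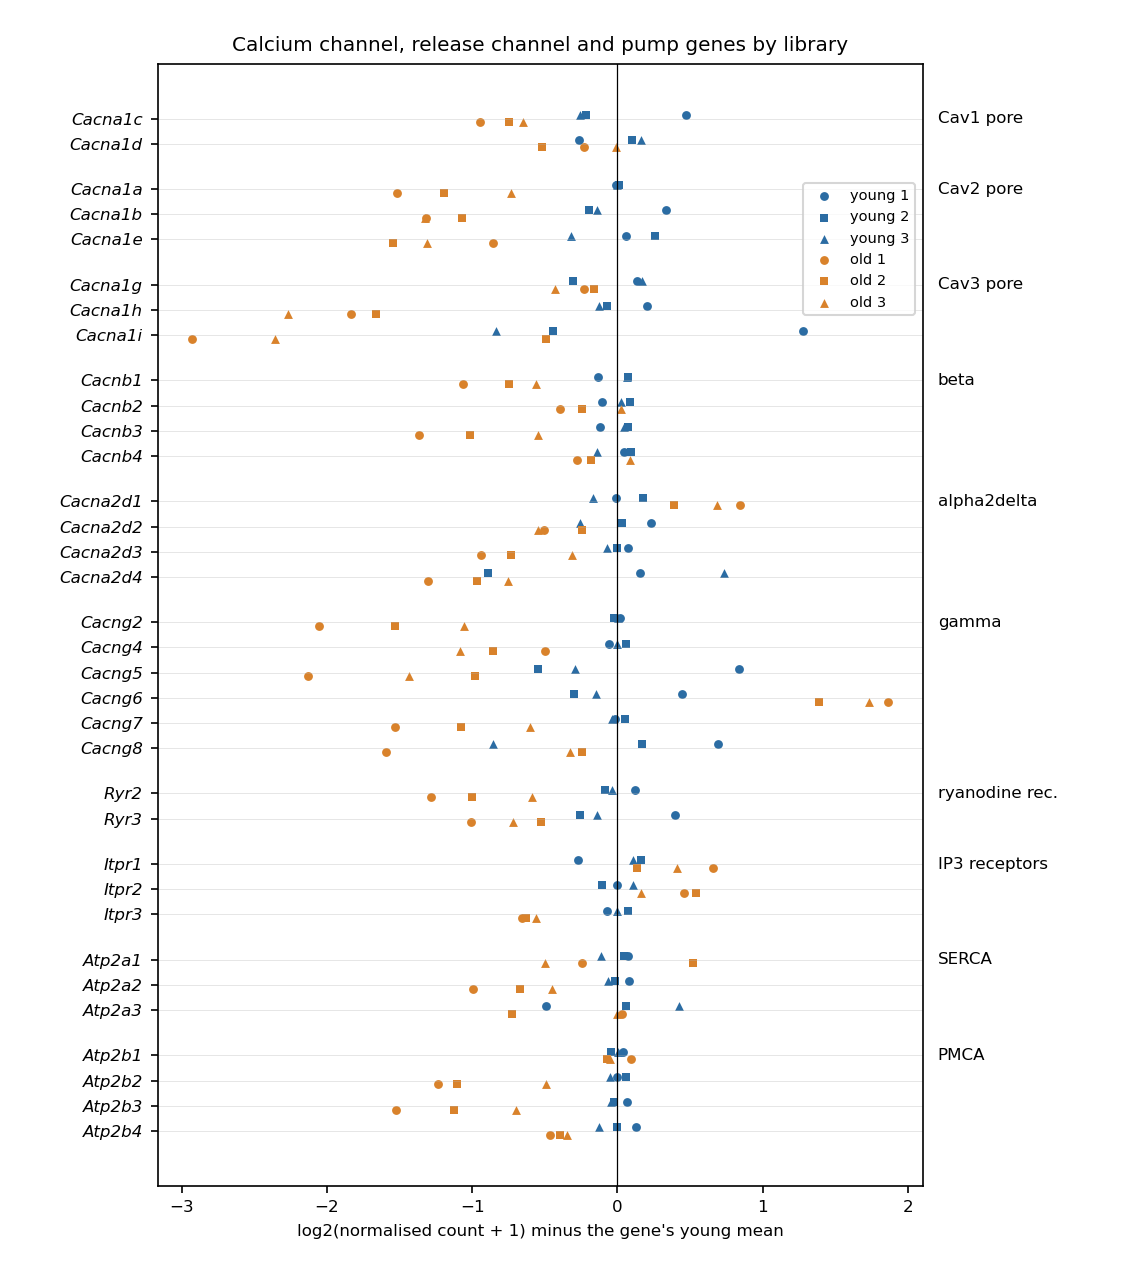
Each gene's log2(normalised count + 1) in each library minus its mean in the 3 young libraries, with young libraries in blue and old libraries in orange and genes grouped by family. Old 1 (orange circles) is the farthest left in most genes that fell, and Cacna2d1 and Cacng6 are the rows whose orange points lie wholly to the right with the widest gaps.

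The promoter windows of these genes were read from RefSeq (GRCm38.p6, 250 bases before to 50 after each gene's start). Of the 34 genes 25 matched, with 37 start sites, and Cacna1a, Cacna1g, Cacna1h, Cacna2d4, Cacng4, Ryr3, Itpr1, Atp2a2 and Atp2b3 did not. The windows had a median GC content of 63.3%, against 52.7% over all 32851 windows in the RefSeq table, and 62.2% of them were above 60% GC, against 28.6%. The sequences shown are of a rise and a fall from each of a pair of families, alpha2delta and gamma, in lower case with matches to the GC box GGGCGG and the EGR motif GCGGGGGCG in capitals on either strand. Matches of both motifs can overlap and then run together.
Cacna2d1: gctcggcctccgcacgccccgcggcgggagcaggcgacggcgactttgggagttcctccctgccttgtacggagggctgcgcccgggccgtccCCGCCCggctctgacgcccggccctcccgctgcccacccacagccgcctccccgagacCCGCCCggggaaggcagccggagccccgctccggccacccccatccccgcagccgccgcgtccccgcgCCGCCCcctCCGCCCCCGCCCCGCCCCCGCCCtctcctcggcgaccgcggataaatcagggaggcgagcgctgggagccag
Cacna2d3: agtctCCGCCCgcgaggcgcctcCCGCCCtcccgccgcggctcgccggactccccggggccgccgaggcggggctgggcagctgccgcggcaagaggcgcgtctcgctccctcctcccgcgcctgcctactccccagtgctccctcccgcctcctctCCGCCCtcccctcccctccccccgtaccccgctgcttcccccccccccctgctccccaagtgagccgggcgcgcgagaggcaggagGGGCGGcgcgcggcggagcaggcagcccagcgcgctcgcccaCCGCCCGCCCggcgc
Cacng6: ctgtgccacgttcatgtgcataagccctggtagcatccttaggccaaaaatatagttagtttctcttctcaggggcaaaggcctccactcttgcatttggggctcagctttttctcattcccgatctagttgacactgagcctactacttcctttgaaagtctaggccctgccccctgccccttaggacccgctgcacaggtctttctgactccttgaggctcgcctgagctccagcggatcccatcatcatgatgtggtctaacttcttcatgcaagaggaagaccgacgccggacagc
Cacng2: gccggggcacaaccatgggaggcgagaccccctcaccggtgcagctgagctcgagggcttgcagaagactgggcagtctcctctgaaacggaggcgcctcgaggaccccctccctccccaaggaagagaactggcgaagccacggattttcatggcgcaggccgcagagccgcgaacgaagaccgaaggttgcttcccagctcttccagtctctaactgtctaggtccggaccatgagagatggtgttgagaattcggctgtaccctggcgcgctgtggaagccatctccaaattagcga
The windows lie at chr5:15934441-15934740 on the plus strand (Cacna2d1), chr14:29721815-29722114 on the minus strand (Cacna2d3), chr7:3424412-3424711 on the plus strand (Cacng6) and chr15:78119231-78119530 on the minus strand (Cacng2). Cacna2d1, which rose, and Cacna2d3, which fell, both had GC-rich windows (80.0% and 81.3%) with 7 and 6 GC boxes, and Cacna2d1 had 2 EGR motifs. The windows of Cacng6, which rose, and Cacng2, which fell, held none and had 8 and 20 CpG sites. Over the 37 windows 56.8% held a GC box and 10.8% the EGR motif, against 35.7% and 2.91% of all windows. Of the genes that fell 10 of 13 had a GC box, of those that rose 2 of 3, and of the rest 6 of 9. The left part of the RE1 motif of neuronal genes (TTCAGCACC) and the cAMP response element TGACGTCA were in none of the 37 and in 0.371% and 1.79% of all windows. The TATA box TATAAA was in 2.70%, against 13.6%, and the E-box CACGTG in 5.41%, against 7.15%. A match is a description of the letters in the window, and no binding was measured.

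The Cav2 pores of the presynaptic terminal all fell. Cacna1a, the P/Q-type pore, stood at 2997, 3048 and 3015 normalised counts in young 1, 2 and 3 and at 1056, 1316 and 1820.0 in old 1, 2 and 3. The young libraries were nearly equal, the old ones were spread, and the groups did not overlap. Its level was 2.16-fold lower in old nerves (log2 fold change -1.15 ± 0.18, adjusted p = 0.00636). Cacna1b, the N-type pore, stood at 909, 629 and 653 in young and 289, 343 and 286 in old libraries, and fell by a similar size (-1.24 ± 0.16, adjusted p = 0.00509). Cacna1e, the R-type pore, stood at 1521, 1742 and 1171 in young and 804, 499 and 587 in old nerves (-1.24 ± 0.21, adjusted p = 0.00722). Old 2 was lowest for Cacna1e, whereas old 1 was lowest for Cacna1a. With the length and GC trends removed the log2 fold changes of Cacna1a, Cacna1b and Cacna1e were -0.60, -0.80 and -0.75, and all 3 still passed, as they did without any single library.

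The make-up of the Cav2 family did not move beyond its spread. Per kilobase of transcript, the share of the P/Q-type pore in the family's normalised counts went from 68.7% ± 3.27 to 69.7% ± 7.80 (SD, n = 3 per group, exact permutation test p = 0.9). The N-type share went from 13.5% ± 2.51 to 12.8% ± 2.67 and the R-type share from 17.8% ± 2.86 to 17.4% ± 6.46. Summed over the 3 genes, the normalised counts were 5428, 5419 and 4839 in young and 2149, 2158 and 2693 in old libraries.

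Of the Cav1 pores Cacna1c was lower and Cacna1d did not pass. Cacna1c, the Cav1.2 pore of neurons, muscle and many other cells, stood at 1592, 987 and 959 in young and 594, 681 and 731 in old libraries (-0.78 ± 0.20, adjusted p = 0.0232). Young 1 lay well above the other young libraries, and the groups did not overlap. It did not pass without old 1 or old 2 (adjusted p up to 0.0723), and removing the length and GC trends gave -0.30, adjusted p = 0.284. The 10 smooth muscle and pericyte markers summed to 18340.1 to 21597 in young and 17075 to 17482 in old nerves, with 2 of them lower, and their part in Cacna1c was not tested.

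Cacna1d, the Cav1.3 pore that carries calcium at hair cell synapses, stood at 1959, 2513 and 2632 in young and 2004, 1642 and 2338 in old libraries (-0.25 ± 0.16, adjusted p = 0.25). The groups overlapped, and within each group the order of libraries was that of the hair cell markers. The 12 hair cell markers summed to 6520.5, 8015 and 11757 over the young libraries, in order, and to 8400.2, 5953 and 10072 over the old ones. None of the 12 passed in limma, edgeR or DESeq2, and 0 had an unadjusted p under 0.05. Otof (otoferlin), the calcium sensor of hair cell release, stood at 1201, 1862 and 3099.8 in the young and 1961, 919 and 2110.1 in the old libraries. This likeness was noticed in the values, and the part of hair cell RNA in Cacna1d was not tested. In GENCODE M21 4.67% of the exon bases of Cacna1d are shared with Chdh on the opposite strand, and whether reads were counted by strand is not stated.

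The largest fall among the 34 that passed was in the Cav3 family. Cacna1h, the Cav3.2 T-type pore of sensory neurons, stood at 449, 372 and 357 in young and 109, 122 and 80.3 in old libraries. No library came near the other group. It was 3.78-fold lower (-1.92 ± 0.19, adjusted p = 0.00399), and -1.29, adjusted p = 0.0161 with the trends removed. It lies on chromosome 17 from 25374287 to 25433783 in mm10. Cacna1g, the Cav3.1 pore and the most abundant of the family, stood at 1039.9, 766 and 1066 in young and 809, 848 and 702 in old libraries, and the groups overlapped (-0.27 ± 0.15, adjusted p = 0.186). Cacna1i, the Cav3.3 pore, was scarce and varied widely, from 57.3 to 252 in young and from 12.7 to 73.1 in old nerves (-1.93 ± 0.76, adjusted p = 0.087). It was called lower by DESeq2 on recovered reads (adjusted p = 0.033) and by the FDR in the authors' deposited table (0.0348), but not by edgeR. Per kilobase, the share of Cacna1h in the family went from 27.5% ± 3.43 to 11.4% ± 1.02 and that of Cacna1g from 65.4% ± 5.98 to 85.5% ± 3.14. Neither share overlapped between the groups (exact permutation test, p = 0.1 for each, the smallest that 3 against 3 can give). A share within a family also moves when its other members change, so it is not separate from the levels above.

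The beta subunits, cytoplasmic proteins that bring the pore to the membrane and set its gating, fell in 2 of 4 cases. Cacnb3, the most abundant per kilobase (1628 normalised counts per kb over all libraries), stood at 5378, 6152 and 6018 in young and 2262, 2884 and 4006 in old libraries (-0.98 ± 0.19, adjusted p = 0.0103). Cacnb1 stood at 1118, 1294 and 1284 in young and 587, 732 and 835 in old nerves (-0.79 ± 0.14, adjusted p = 0.00794). In both, old 1 was lowest and old 3 highest of the old libraries, and no old library reached the young range. Cacnb4, the most abundant by normalised count, stood at 6958, 7166 and 6106 in young and 5541, 5929 and 7158 in old nerves, with old 3 among the young values (-0.12 ± 0.11, adjusted p = 0.417). Cacnb2 went from 1999 ± 135 to 1747 ± 263 (-0.20 ± 0.12, adjusted p = 0.211). With the trends removed Cacnb3 (-0.69, adjusted p = 0.0185) and Cacnb1 (-0.49, adjusted p = 0.0197) still passed. GENCODE M21 places 16.0% of the exon bases of Cacnb4 under A430018G15Rik on the opposite strand.

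Within the beta family the share of every subunit lay apart between young and old nerves. Per kilobase, Cacnb3 went from 55.9% ± 1.47 to 43.7% ± 3.56, Cacnb4 from 21.4% ± 2.04 to 30.2% ± 2.34 and Cacnb2 from 13.2% ± 0.208 to 17.7% ± 1.02. The share of Cacnb1 went from 9.47% ± 0.373 to 8.41% ± 0.485. For each of the 4 the groups did not overlap (exact permutation test, p = 0.1, the smallest possible). The shares of Cacnb4 and Cacnb2 were higher in every old library, while the level of neither gene passed. By arithmetic such a share rises when other members fall more, as Cacnb3 and Cacnb1 did.

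The alpha2delta subunits, extracellular proteins that carry channels to the surface and act at synapses, moved in opposite directions. Cacna2d1, a subunit that binds gabapentin, stood at 1306, 1484 and 1173 in young and 2362, 1721 and 2117 in old libraries. Every old library lay above every young one, with old 1 highest. It rose 1.56-fold (0.64 ± 0.14, adjusted p = 0.0132) and more with the trends removed (0.76, adjusted p = 0.0112). It lies on chromosome 5 from 15934691 to 16374511. Cacna2d3, a subunit needed for normal auditory processing in mice, stood at 3133, 2971 and 2839.9 in young and 1549.8, 1792 and 2403 in old nerves (-0.66 ± 0.15, adjusted p = 0.0166). The groups did not overlap, and old 1 was lowest. It did not pass without young 1 or young 2 (adjusted p up to 0.0583). Cacna2d2 went from 897 ± 149 to 662 ± 78.4 (-0.43 ± 0.15, adjusted p = 0.0562), and Cacna2d4, a subunit best known from photoreceptors, from 106 ± 54.3 to 47.5 ± 9.05 (-1.01 ± 0.41, adjusted p = 0.0967). DESeq2 on recovered reads called both lower (adjusted p = 0.0278 and 0.0311), as did the FDR in the authors' deposited table (0.028 and 0.034), whereas edgeR called neither.

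Within the family the shares of Cacna2d1 and Cacna2d3 lay apart between young and old nerves. The share of Cacna2d1 per kilobase was 14.4, 17.1 and 14.6% in the young libraries and 37.3, 27.1 and 27.1% in the old ones. That of Cacna2d3 was 69.4, 68.8 and 71.0% in young and 49.3, 56.8 and 62.0% in old nerves. Cacna2d3 stayed the most abundant subunit per kilobase in all 6 libraries, and neither share overlapped between groups (exact permutation test, p = 0.1 for each, the smallest possible).

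The Cacng genes were named for the gamma subunit of the muscle calcium channel, but several encode TARPs, which escort AMPA-type glutamate receptors. Of 6 measured 4 fell and 1 rose. Cacng2 (stargazin), a TARP, stood at 794, 771 and 784 in young libraries, within a few percent of each other, and at 187, 270.4 and 376 in old ones (-1.55 ± 0.23, adjusted p = 0.00595). It was 2.82-fold lower and lies on chromosome 15 from 77993623 to 78119280. Cacng7, a type II TARP and the most abundant of the family, stood at 1901, 2002 and 1879.7 in young and 665, 911 and 1269 in old nerves (-1.07 ± 0.21, adjusted p = 0.0104). In both genes old 1 was lowest and old 3 highest of the old libraries, as in the sum of the neuron markers. Cacng2 shares 5.86% of its exon bases with A730060N03Rik on the opposite strand.

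Cacng5, another type II TARP, stood at 1100.1, 422 and 503 in young and 139.5, 312 and 227 in old libraries (-1.52 ± 0.41, adjusted p = 0.0287). Young 1 held more than the other young libraries, and the call was lost without young 1, young 3, old 1 or old 3 (adjusted p up to 0.0823). Cacng4, a TARP, stood at 229, 249.7 and 239 in young and 169, 132 and 112 in old nerves (-0.81 ± 0.18, adjusted p = 0.014), and did not pass without young 2 or young 3 (adjusted p up to 0.0586). With the trends removed the values of Cacng2, Cacng4, Cacng5 and Cacng7 were -1.33, -0.69, -1.44 and -1.01, all past the threshold.

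Cacng6, a relative of the muscle gamma1 subunit, went the other way at a low level. It stood at 18.8, 10.8 and 12.1 in young and 51.8, 37.0 and 47.4 in old libraries, and the groups did not overlap. It was 3.26-fold higher (1.66 ± 0.32, adjusted p = 0.0101), and 1.52, adjusted p = 0.0218 with the trends removed. Its neighbours on chromosome 7, Cacng7 and Cacng8, were at -1.07 and -0.72 on the log2 scale, and Cacng8, a TARP at a mean of 12.8, did not pass (adjusted p = 0.362). Of the rows left out for low values, Cacna1s, Cacng1 and Ryr1 encode channel parts of skeletal muscle and Cacng3 a TARP, with means of 1.96, 4.65, 4.88 and 3.06. The members just above the limit of 10 were Cacng8 and Cacng6.

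**Figure D3:**
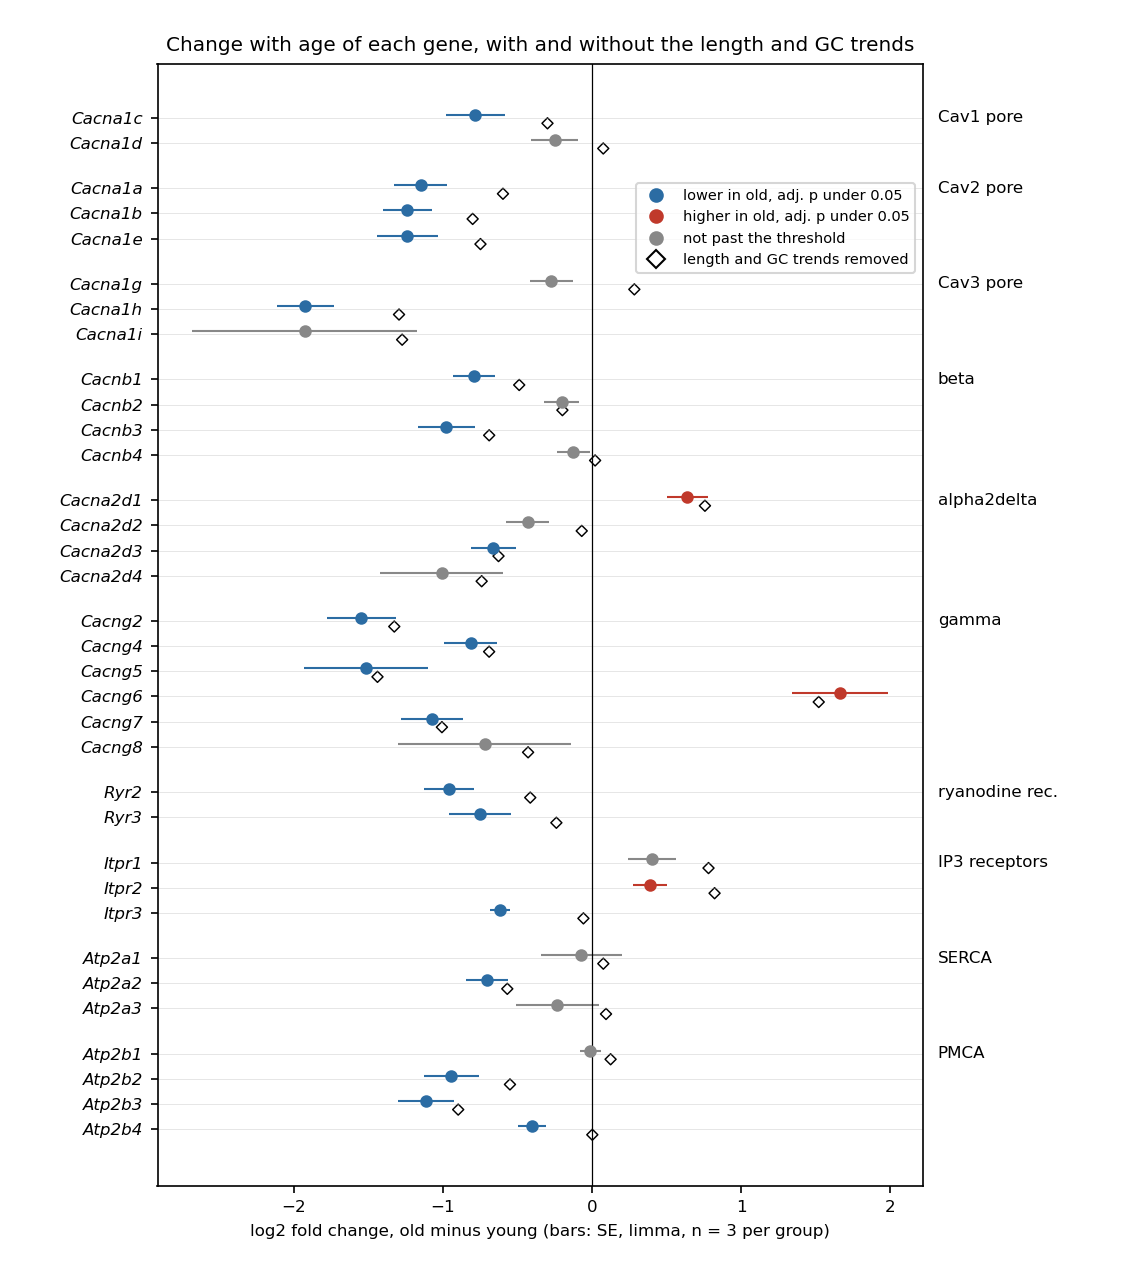
Log2 fold change, old minus young, with its SE for each gene (limma, n = 3 per group; blue lower, red higher, grey not past the threshold), beside the value with length and GC trends removed (open diamonds). The diamonds of Itpr3 and Atp2b4 lie at -0.06 and 0.00, and those of Itpr1 and Itpr2 lie farther right than the filled points.

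Both ryanodine receptors that were measured fell. Ryr2, the receptor of heart and brain, stood at 3545, 3072 and 3177 in young and 1335, 1626 and 2163 in old libraries (-0.96 ± 0.17, adjusted p = 0.00782). The groups were well apart, with old 1 lowest and old 3 highest of the old libraries. Ryr3, a receptor of brain and developing muscle, stood at 551, 349.9 and 379.9 in young and 207, 290.4 and 253 in old nerves (-0.75 ± 0.21, adjusted p = 0.0294), and did not pass without young 1, young 3, old 1 or old 3 (adjusted p up to 0.0844). The Ryr2 transcript has 16814 nt, the longest of the 34, and Ryr3 has 15468 nt. With the length and GC trends removed Ryr2 was at -0.41, adjusted p = 0.0606, and Ryr3 at -0.24, adjusted p = 0.411. Ryr3 shares 4.83% of its exon bases with Aven on the opposite strand. The share of Ryr2 in the pair went from 87.7% ± 1.86 to 86.0% ± 2.51 per kilobase, and the groups overlapped.

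The IP3 receptors were the release channels that did not fall together. Itpr1, the most abundant and the form typical of neurons, stood at 7788, 10513 and 10082 in young and 14774, 10316 and 12479.8 in old libraries. Old 2 lay within the young range, and the gene did not pass (0.40 ± 0.16, adjusted p = 0.0925), although it was called higher with the trends removed (0.78, adjusted p = 0.0199) and by DESeq2 on recovered reads (adjusted p = 0.041). The FDR in the authors' deposited table was 0.0464. Itpr2, a form common in glia and heart, stood at 1599, 1489 and 1729 in young and 2199, 2337 and 1796 in old nerves, with every old library above the young ones (0.39 ± 0.11, adjusted p = 0.0351; 0.82, adjusted p = 0.0136 with the trends removed). It passed in 1 of the 6 fits that leave out a library, that without old 3 (largest adjusted p 0.118). The 10 satellite and nonmyelinating glia markers summed to 99615 to 104422 in young and 131322 to 144511 in old nerves, with 2 higher and 3 lower, and their part in Itpr2 was not tested. Itpr3, a form typical of secretory and sensory epithelia, stood at 7547, 8324 and 7928 in young and 5034, 5123 and 5370.0 in old libraries. Its replicates were tight and the gap between groups wide (-0.62 ± 0.07, adjusted p = 0.00427), on chromosome 17 from 27057304 to 27122223. Removing the length and GC trends gave -0.06, adjusted p = 0.548. The 12 markers of cochlear epithelium and stria summed to 32496 to 42844 in young and 45087 to 60368 in old nerves. Of the 11 tested, 4 were higher and 1 lower, and their part in Itpr3 was not tested.

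Within the family the share of Itpr1 was higher and that of Itpr3 lower in every old library. Per kilobase of the longest coding transcript, Itpr1 made up 44.7, 50.3 and 49.8% in the young libraries and 66.7, 57.6 and 62.7% in the old ones. Itpr3 made up 47.6, 43.7 and 43.0% in young and 24.9, 31.4 and 29.6% in old nerves. Neither overlapped between groups (exact permutation test, p = 0.1 for each, the smallest possible). The balance in young nerves depended on the length used. Per kilobase of the mean coding transcript length, a choice made after seeing the data, Itpr1 went from 68.3% ± 2.84 to 77.7% ± 3.53 and Itpr3 from 23.9% ± 1.90 to 13.5% ± 1.94. The longest transcripts have similar lengths, 9870 and 8990 nt, while their GC contents are 49.5% and 57.5%. The normalised counts of the 3 genes summed to 16934, 20326 and 19740 in young and 22007, 17777 and 19646 in old libraries, which overlapped.

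**Figure D4:**
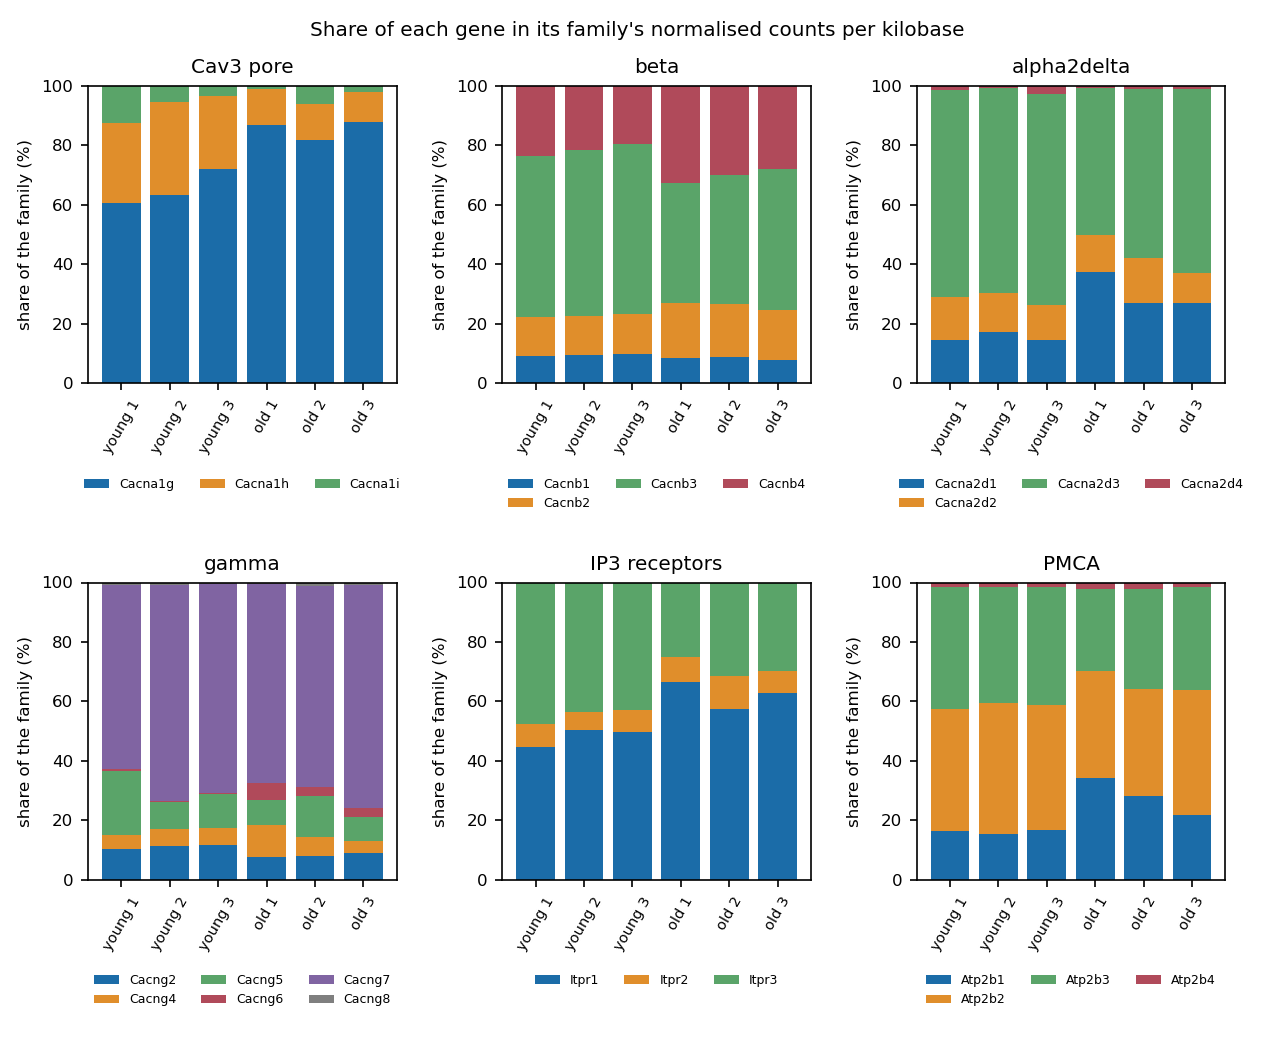
Share of each gene in the summed normalised counts per kilobase of its family, in each of the 6 libraries, for the Cav3, beta, alpha2delta, gamma, IP3 receptor and PMCA families. The shares of Cacna2d1, Itpr1, Cacna1g and Atp2b1 are higher in every old library than in any young one.

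Among SERCA pumps the housekeeping form fell. Atp2a2 (SERCA2), the most abundant of the 34 both by normalised count and per kilobase (5160.4 per kb), stood at 30193, 28291 and 27259 in young and 14341, 17942 and 20873 in old libraries. No old library reached the young range, and old 1 was lowest. It was 1.61-fold lower (-0.71 ± 0.14, adjusted p = 0.0106), and -0.57, adjusted p = 0.0232 with the trends removed. Atp2a3 (SERCA3), a form of blood cells and epithelia, ranged from 1396 to 2635 in young and from 1186 to 2006 in old libraries (-0.23 ± 0.28, adjusted p = 0.541). Its lowest libraries, young 1 and old 2, were also those with the lowest hair cell marker sums. This likeness too was noticed in the values, and the part of hair cell RNA in Atp2a3 was not tested. Atp2a1 (SERCA1), the form of fast muscle, was at a mean of 122 (-0.07 ± 0.27, adjusted p = 0.857) and shares 21.9% of its exon bases with Rabep2 on the opposite strand. The 15 skeletal muscle markers summed to 3304 to 4168 in young and 2287 to 3152 in old nerves, and 7 of them had means under 10. The share of Atp2a2 in the family went from 93.0% ± 2.12 to 90.5% ± 2.85 per kilobase, and the groups overlapped.

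Of the 4 PMCA pumps 3 fell, and the housekeeping form did not pass. Atp2b2 (PMCA2), the form of hair bundles and neurons whose loss causes deafness in mice, stood at 16584, 17323 and 16041 in young and 7052, 7748 and 11858 in old libraries (-0.94 ± 0.18, adjusted p = 0.0101). Atp2b3 (PMCA3), a neuronal form, stood at 8566, 8049.7 and 7911 in young and 2832, 3753 and 5039 in old nerves and was 2.11-fold lower (-1.12 ± 0.19, adjusted p = 0.00738). In both, the young libraries lay close together and old 3 lay nearest to them. Atp2b4 (PMCA4), a widely expressed form, stood at 857, 779.5 and 717 in young and 567, 595 and 614 in old nerves (-0.40 ± 0.10, adjusted p = 0.0187). It did not pass without young 1, young 2 or old 1 (adjusted p up to 0.0656), and removing the trends gave 0.00 (0.00239, adjusted p = 0.988). Atp2b1 (PMCA1), the housekeeping form, stood at 5218, 4912 and 5094 in young and 5406, 4819 and 4903 in old libraries. Its groups overlapped, and its log2 fold change was -0.01 ± 0.07, adjusted p = 0.921.

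The share of Atp2b1 among PMCA pumps was higher in old nerves while its level was not. By arithmetic such a share rises when other members fall, as Atp2b2 and Atp2b3 did. Per kilobase Atp2b1 made up 16.2, 15.5 and 16.7% in the young libraries and 34.3, 28.1 and 21.7% in the old ones. That of Atp2b3 went from 39.9% ± 0.904 to 31.9% ± 3.70, and neither overlapped between groups (exact permutation test, p = 0.1 for each, the smallest possible). The share of Atp2b2 went from 42.5% ± 1.33 to 38.1% ± 3.56 and overlapped. Without length it went from 54.3% ± 1.36 to 47.7% ± 4.53 and by mean coding transcript length from 37.9% ± 1.33 to 29.8% ± 4.70, and in both the groups did not overlap (exact permutation test, p = 0.1). With the trends removed Atp2b2 was at -0.55, adjusted p = 0.0394 and Atp2b3 at -0.90, adjusted p = 0.0151.

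Other genes of calcium handling were followed in 9 lists. Over 126 tested genes 29 were lower and 12 higher at an adjusted p under 0.05, beside 18.7% and 15.9% of all tested genes, and their median log2 fold change was -0.06. With the length and GC trends removed 24 were lower and 13 higher, beside 13.3% and 11.7% of genes with a known length. The difference between these lists and the 34 genes was not tested. The calcium-binding buffers (13 tested) held 1 rise and no fall in limma, edgeR and DESeq2, with 0 falls at an unadjusted p under 0.05. With the length and GC trends removed 2 of them fell, Pvalb (-0.47, adjusted p = 0.0304) and Calr3 (-0.52, adjusted p = 0.0251), and 2 rose. For each list up to 3 genes with the smallest p are named. S100a1, a calcium-binding protein of muscle and nerve, went from 9856 ± 2403 to 24766 ± 7371 (1.32 ± 0.24, adjusted p = 0.00832). Pvalb (parvalbumin), a fast buffer of spiral ganglion neurons, stood at 20095, 17619 and 19442 in young and 16744, 19888 and 20558 in old libraries, and Calb2 (calretinin) at 78046, 108936 and 110917 in young and 92868, 86925 and 112404 in old ones. The normalised counts of the groups overlapped in both genes, which were chosen after their values were seen. Removing the trends put Calb2 at -0.28, adjusted p = 0.306.

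Sensors and kinases that read the calcium signal were the next lists. Of 18 calmodulin and neuronal sensor genes 3 (16.7%) fell and 1 (5.56%) rose, beside 18.7% and 15.9% of all tested genes. Ncs1, a sensor of the presynaptic terminal, went from 12803 ± 278 to 5983 ± 1779 (-1.14 ± 0.20, adjusted p = 0.00775), Hpca (hippocalcin) from 374 ± 8.89 to 203 ± 55.6 and Cabp1, a modulator of Cav channels, from 3359 ± 40.1 to 1865 ± 615. Removing the trends gave 4 falls, and put Cabp1 at -0.57, adjusted p = 0.0455. Of 20 kinase and calcineurin genes 9 (45%) fell and 2 (10%) rose. With the trends removed 7 fell and 2 rose, beside 13.3% and 11.7% of genes with a known length. Camkk2, the kinase that activates CaM kinases and AMPK, went from 1300.3 ± 99.8 to 696 ± 60.1 (-0.90 ± 0.10, adjusted p = 0.00441), and Camk4 from 2335 ± 88.3 to 1512 ± 129.7 (-0.63 ± 0.08, adjusted p = 0.00499).

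Partners of the channels fell in 12 of 32 cases (37.5%) and rose in 3 (9.4%), beside 18.7% and 15.9% of all tested genes. With the trends removed 8 fell and 3 rose, beside 13.3% and 11.7% of genes with a known length. Stac2, an adaptor that binds Cav1 channels, stood at 11966, 13100.2 and 13801 in young and 3554, 5108 and 7744 in old libraries (-1.31 ± 0.25, adjusted p = 0.00979). Itpripl2 went from 2005 ± 182 to 1026 ± 16.9 (-0.96 ± 0.08, adjusted p = 0.00399), and Unc80, a subunit of the sodium leak channel, from 17217 ± 611 to 8595 ± 2419 (-1.04 ± 0.18, adjusted p = 0.00784). Unc80 without the trends was at -0.58, adjusted p = 0.0344. Pln (phospholamban), the inhibitor of SERCA2, was chosen after its values were seen and was lower, from 175 ± 39.5 to 67.2 ± 19.9 (-1.39 ± 0.29, adjusted p = 0.0122).

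Most of the remaining lists held both rises and falls. Their counts stand beside 18.7% lower and 15.9% higher among all tested genes, or 13.3% and 11.7% with the trends removed. In store-operated entry, which refills emptied stores, the store sensor Stim2 was higher (3361 ± 473 to 5478 ± 1019, 0.70 ± 0.16, adjusted p = 0.0149) and the pore Orai2 lower (778 ± 42.3 to 531 ± 59.1, -0.55 ± 0.11, adjusted p = 0.00989), with 2 rises and 2 falls among 6 genes. The 1 rise and 1 fall left after removing the trends were of Stim2 (0.82, adjusted p = 0.0154) and Orai2 (-0.36, adjusted p = 0.0335). Of 9 genes of mitochondrial uptake Micu2, a gatekeeper of the uniporter, was higher (0.47, adjusted p = 0.00756) and Letm1 lower (-0.48, adjusted p = 0.0118). After removing the trends Micu2 was at 0.29, adjusted p = 0.0281 and Letm1 did not pass (-0.23, adjusted p = 0.0691). Micu3, another uniporter regulator, named after its value was seen, was lower in that fit (-0.57, adjusted p = 0.0287). Of 7 sodium-calcium exchangers Slc24a4 was higher (1.10, adjusted p = 0.00864) and Slc8a3 (NCX3) lower (-0.60, adjusted p = 0.0295). Slc8a3 did not pass with the trends removed (-0.39, adjusted p = 0.108). Of 18 genes of the phospholipase C and Gq pathway, which makes IP3, Plcg1 was lower (-0.60, adjusted p = 0.00475) and Plch1 higher (0.57, adjusted p = 0.0166). Plcg1 without the trends was at -0.33, adjusted p = 0.0126, and 3 genes of the list were higher. Of the 3 Golgi genes none passed in limma, edgeR or DESeq2 and 0 had an unadjusted p under 0.05 in limma, and Atp2c2 stood at 60.2, 56.0 and 44.0 in young and 55.0, 92.0 and 85.1 in old libraries.

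**Figure D5:**
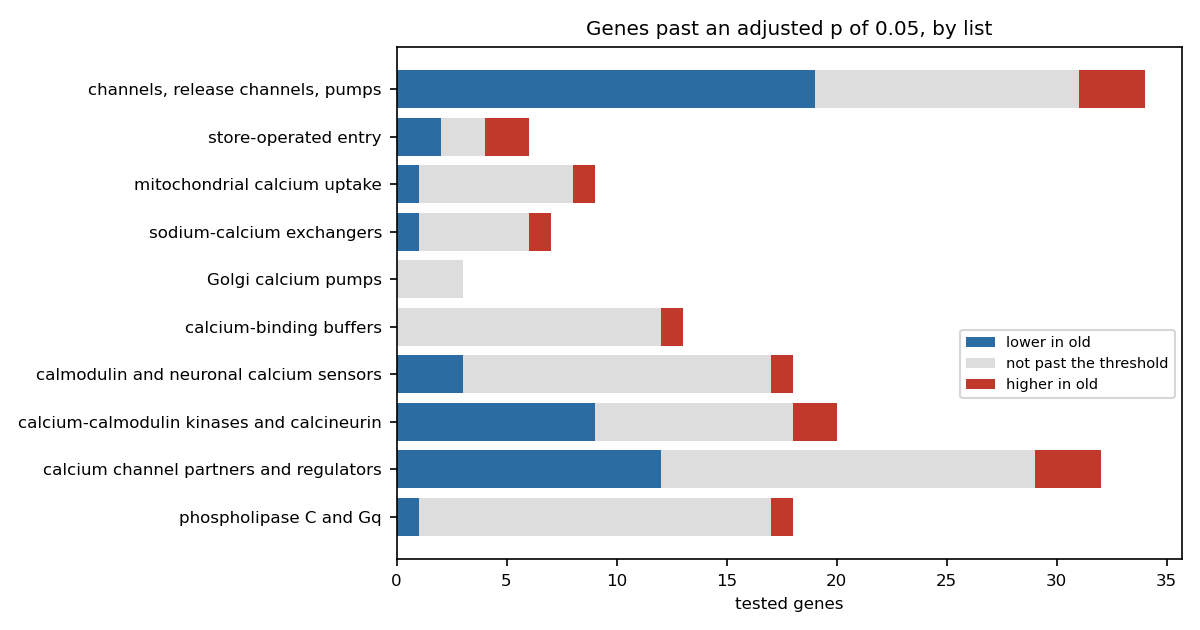
Number of tested genes lower (blue), higher (red) or not past an adjusted p of 0.05 (grey) in old nerves, for the 34 channel, release channel and pump genes and for 9 lists of related calcium genes. The bar of the 34 genes holds 19 falls and 3 rises, and the buffers hold no fall in this fit, in which the length and GC trends were kept.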

How the data were processed

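RNA was taken from auditory nerves of 3 young and 3 old mice and sequenced. Per the submitters' processing notes TopHat2, Partek, DESeq2 and the mm10 build were used, with no version or strand setting given in these sources. The deposited signal values are read counts that the authors divided by 1 size factor per library, from which whole reads were recovered for 99.93% or more of values per library (within 0.1 of a whole number). The authors also deposited a p-value and FDR per gene and a score holding a signed fold change, of which only the FDR served, as an alternative call.

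Old was compared with young nerves by limma 3.58.1 with a mean-variance trend on log2(value + 1), over the 15882 genes that passed filterByExpr on recovered reads (minimum count 10, minimum total 15), with Benjamini-Hochberg adjustment at 0.05. The limma and edgeR fits were also run on simulated counts with a fixed dispersion. These held no length trend and no batch, so they do not test how the calls depend on those. Transcript lengths and GC content came from GENCODE M21, and trends were removed per library with mgcv 1.9.3. Alternatives used edgeR 4.0.16 and DESeq2 1.42.0 on recovered reads, other scalings, filters and pseudocounts, and each library left out. Per-library values are named for genes past the threshold with a mean of at least 500 or a change of at least 1.5-fold and for the most abundant of each family. Members and lists were chosen with earlier results of these data known.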

Additional observations from a re-analysis of the deposited data

How the results depend on the processing

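The 19 falls and 3 rises among the calcium channel, release channel and pump genes were 19 and 3 in edgeR and 22 and 4 in DESeq2 and by the authors' deposited FDR. Over all 15882 tested genes the counts were 2859 and 2559 in edgeR, 3256 and 2954 in DESeq2 and 3219 and 2843 by the authors' FDR. Among the 34 genes they were 15 and 2 with the replicate number as a block and 9 and 2 without both young 1 and old 2. Removing the length and GC trends together with the block left 0 and 0 in limma, with 15 and 4 at an unadjusted p under 0.05. That fit left 2 falls and 10 rises among all genes and 0 and 0 among the related calcium genes, of which 27 and 16 had an unadjusted p under 0.05.

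Among all genes 2969 falls and 2524 rises became 1633 and 1078 with the block and 945 and 831 without young 1 and old 2, and 1975 falls with the trends removed. Upper-quartile scaling gave 2338 falls and 3439 rises, and 19 and 4 among the 34 genes. Leaving out each library gave 1430 (without young 2) to 3360 falls and 1159 (without young 2) to 2757 rises over all genes, 15 to 20 falls and 2 to 3 rises among the 34, and 12 (without young 2) to 35 falls and 4 to 11 rises among the related genes (29 and 12 with all libraries). The related genes gave 17 and 5 with the block and 4 and 4 without young 1 and old 2. The cause of these changes was not tested.

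Same-numbered young and old libraries correlated at -0.29, -0.41 and -0.05 over 15882 genes in their deviations from the group means. The highest value of any pair was 0.40, for young 1 and old 2, the pair left out together above. With 3 libraries per group these deviations constrain one another, so the check cannot exclude that same-numbered libraries were prepared together. No library correlated best with the library of its own number, and the block stood as an alternative only. Atp2b4 was no longer lower with the trends removed, at 0.00239 with or without the block (limma, adjusted p = 0.988 without it). As differences in share, old minus young in percentage points, Cacnb1 was -1.66, Cacnb2 2.32 and Cacng2 -4.89 without length, and Cacnb1 -1.64, Cacnb2 6.76, Cacnb4 6.41, Itpr1 9.37, Itpr3 -10.4 and Atp2b2 -8.06 by mean coding transcript length, an alternative chosen after seeing the data. The shares of Atp2b2 overlapped between groups per kilobase of the longest transcript, and did not under either other setting.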

Other observations

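Summed over each family, the normalised counts of the pore-forming alpha1 genes were 10254 ± 419 in young and 5922 ± 561 in old nerves (SD, n = 3). Those of the PMCA pumps were 30684 ± 802 and 18396 ± 3520, and those of the SERCA pumps 30729 ± 886 and 19555 ± 3238. The old libraries varied more than the young ones in both pump families, with old 1 lowest and old 3 highest. The IP3 receptors stood at 19000.1 ± 1813 and 19810 ± 2120, and these groups overlapped.

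Markers of other tissues around the nerve also differed between libraries. The 10 osteoblast and bone markers summed to 6991 to 9709 in young and 2744 to 5223 in old nerves, and 6 of them were lower at an adjusted p under 0.05 in limma. The 7 neutrophil markers summed to 2714, 572 and 282 across the young libraries and to 2653, 291 and 2121 across the old, in order, so that 1 young and 2 old libraries were high. The 7 erythroid markers summed to 2386, 4319 and 3267 in the young libraries and to 10364, 3279 and 15859 in the old ones, with old 1 and old 3 high. The part of these shifts in the values of the calcium genes was not tested.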
